A study of Mus musculus with 2 samples.

Results

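The subunits of the ionotropic and metabotropic receptors for GABA, glutamate and glycine were examined in teratomas formed by wild-type mouse embryonic stem cells and by cells with a mutated Sox2 allele. Members were taken from the deposited gene table by symbol, as every protein-coding gene named as a GABA-A, GABA-A rho, GABA-B, AMPA, kainate, NMDA, metabotropic glutamate or glycine receptor subunit. This gave 50 of the 45777 genes listed. The rule uses names and not levels, but it was set with earlier results of these data known.

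E14 is an embryonic stem cell line of the mouse. E14-Sox2TA/WT is its derivative in which CRISPR/Cas9 changed threonine to alanine (T258A) in the Sox2 protein from 1 allele, isolated as a clone from single cells. Cells of each genotype were injected under the skin of BALB/c-nu mice, a nude strain without a thymus that still has its other tissues, in 3 animals per genotype, and tumors were collected on day 14. One polyA RNA-seq library was deposited for E14 (labelled WT) and 1 for E14-Sox2TA/WT (labelled Sox2 T258A mutant). Both groups share the host strain, the injection site and the day, and host tissue can contribute RNA to both. The sources do not say whether a library holds 1 tumor or several, and the extraction note in the labels speaks of the stem cell line although the tissue is labelled as teratoma. With 1 library per group, no test between genotypes was possible, and every difference given here is between these 2 libraries. The intervals cover counting error of the reads only.

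GABA and glycine are the main inhibitory transmitters of the central nervous system, and glutamate is the main excitatory one. GABA-A and glycine receptors are pentamers that let chloride through, and AMPA, kainate and NMDA receptors are tetramers that let cations through. GABA-B and metabotropic glutamate receptors act through G proteins. The subunits in a receptor set its kinetics, its pharmacology and, for AMPA and NMDA receptors, how much calcium enters. Most of these genes are used chiefly by neurons, but glia express some of them and a few are known from epithelia or the retina.

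The libraries held 50529171 reads on genes for E14 and 49030281 for E14-Sox2TA/WT. Sox2, the edited gene, was at a TPM (a level scaled by transcript length and library size) of 246 in E14 and 130 in E14-Sox2TA/WT, from 14585 and 8623 reads. Its level does not check the genotype, because the edit changes 1 residue. Reads on 4 Y-linked genes summed to 5453 in E14 and to 0 in E14-Sox2TA/WT, so the libraries also differed in this. All 12 neuron markers were detected in both libraries, none was at 0, and their summed TPM was 2844 in E14 and 470 in E14-Sox2TA/WT, which is 6.06-fold lower. Tubb3, the neuronal beta-tubulin, made up most of this sum in E14 and went from 1722 to 170. Without it, the other 11 summed to 1122 and 299, 3.75-fold lower. The summed TPM of 5 epithelial markers was 375 in E14 and 1055 in E14-Sox2TA/WT, and that of 4 pluripotency markers was 33.7 and 533. For 8 markers of radial glia and astrocytes it was 4591 and 1833, for 7 of the oligodendrocyte lineage 322 and 97.3, for 4 of skeletal muscle 95.3 and 48.6, and for 4 of cartilage 72.5 and 90.4.

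Stretches upstream of transcript starts are shown for 5 members because they span the range of what was found, with a subunit at high level in E14 (Gabbr1), an obligatory subunit with a large difference (Grin1), the subunit that was higher in E14-Sox2TA/WT (Gabrp) and members with small differences (Grm2 and Glrb). Sequences are from RefSeq on GRCm38.p6, on the strand of the gene, from 5′ to 3′, and end just before the gene. In the first set, capitals mark each CG dinucleotide. Gabbr1 lies at chr17:37045716-37045965 on the plus strand, Grin1 at chr2:25319188-25319437 on the minus strand and Gabrp at chr11:33578979-33579207 on the minus strand.
Gabbr1: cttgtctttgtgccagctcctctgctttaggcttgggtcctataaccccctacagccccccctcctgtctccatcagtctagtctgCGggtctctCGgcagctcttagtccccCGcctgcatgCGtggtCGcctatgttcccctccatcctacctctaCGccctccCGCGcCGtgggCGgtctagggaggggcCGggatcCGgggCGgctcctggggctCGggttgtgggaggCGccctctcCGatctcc
Grin1: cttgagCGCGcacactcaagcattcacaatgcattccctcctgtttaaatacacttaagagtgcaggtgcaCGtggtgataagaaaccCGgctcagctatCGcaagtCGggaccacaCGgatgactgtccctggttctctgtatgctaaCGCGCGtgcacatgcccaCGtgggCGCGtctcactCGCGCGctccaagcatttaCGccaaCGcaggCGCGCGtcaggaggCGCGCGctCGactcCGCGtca
Gabrp: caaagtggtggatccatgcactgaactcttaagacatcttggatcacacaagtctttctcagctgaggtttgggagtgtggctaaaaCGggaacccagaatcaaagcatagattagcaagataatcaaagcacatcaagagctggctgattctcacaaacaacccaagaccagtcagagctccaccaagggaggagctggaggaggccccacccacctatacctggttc

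The Gabbr1 stretch held 16 CG dinucleotides in 250 bases, the Grin1 stretch held 27 in 250, and the Gabrp stretch held 1 in 229. Low numbers also occurred in members lower in E14-Sox2TA/WT, with 0 for Gabra3 and 1 for Gabrg1 in 250 bases. A promoter window was given for 36 of the 50 members. Some windows overlap exons. Those of Grin2d and Glra4 lie wholly (250 bases) in exons of the same gene, and 1 Gabrb1 window has 197 bases in exons of Gabra4. Such windows were kept in all counts of CG dinucleotides and motifs. Per member, the largest number of CG dinucleotides in the 250 upstream bases of any of its windows was taken. For 27 members with a mean TPM of at least 1 over both libraries, its median was 16, with a range from 0 to 42. For 9 members with a lower mean TPM, its median was 3, with a range from 1 to 15. Counted per window instead, the median was 8 over the 43 windows of members. Over all genes, the median per window was 14 for genes with a mean TPM of at least 1 and 6 in all windows.

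In the second set, capitals mark the letters of the left and right parts of RE1, the element bound by the repressor REST (TTCAGCACC and GGACAGC, either strand). Grm2 lies at chr9:106656110-106656359 on the minus strand and Glrb at chr3:80913661-80913910 on the minus strand.
Grm2: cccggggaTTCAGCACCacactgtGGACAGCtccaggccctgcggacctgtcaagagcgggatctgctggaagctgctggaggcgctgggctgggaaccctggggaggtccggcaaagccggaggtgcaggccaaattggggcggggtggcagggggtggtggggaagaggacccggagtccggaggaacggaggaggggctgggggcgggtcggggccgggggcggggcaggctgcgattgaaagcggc
Glrb: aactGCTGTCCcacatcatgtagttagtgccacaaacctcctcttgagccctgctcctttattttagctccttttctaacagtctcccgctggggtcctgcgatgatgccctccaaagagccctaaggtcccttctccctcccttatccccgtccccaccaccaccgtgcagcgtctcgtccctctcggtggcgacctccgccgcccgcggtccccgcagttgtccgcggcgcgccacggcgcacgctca

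Grm2 was the member whose window held both parts. TTCAGCACC was found in 1 of 43 windows of members (2.33%) and in 0.301% of all 32851 windows of this length. GGACAGC was in 4 windows of members (9.30%) and in 5.28% of all. These 4 were of Grm2, Glrb, Glra2 and Gria2. Glra2 and Gria2 had larger differences than Grm2 and Glrb, with reads 10.2-fold and 4.96-fold lower in E14-Sox2TA/WT. The SOX-type motif ACAATG, searched on both strands, was in 2 windows of members (4.65%) and in 10.7% of all, and ACAAAG was in 3 (6.98%) and in 16.5% of all. TATAAA on the strand of the gene was in 2 (4.65%) and in 7.59% of all. Windows of genes with a mean TPM of at least 1 had other shares. These were 6.54% for ACAATG, 12.9% for ACAAAG and 4.55% for TATAAA. For TTCAGCACC and GGACAGC they were 0.321% and 6.10%. ACAATG and ACAAAG begin with the same letters, ACAA, and a match describes the sequence only.

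Across the receptor subunits, transcripts were mostly lower in the E14-Sox2TA/WT library. The TPM of all 50 summed to 585 in E14 and to 127 in E14-Sox2TA/WT, which is 4.61-fold lower, from 77226 and 17586 reads. Of the 50, 40 had a lower TPM in E14-Sox2TA/WT, 8 had a higher TPM and 2 (Gabra6 and Glra4) had no read in either library. The counting interval of the read ratio lay wholly below 1 for 36 members and wholly above 1 for 4 (Gabrd, Gabrp, Grin2c and Grm6), and it held 1 for 8. For these counts of the 50 members, the shares over all genes were not computed, so they describe the members only. Shares over all genes are given below for members that passed a filter. In bulk tissue, fewer cells of a type and less RNA per cell cannot be told apart, and this applies to every value that follows. The share of neurons was not measured, so its part in these differences was not tested.

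**Figure D1:**
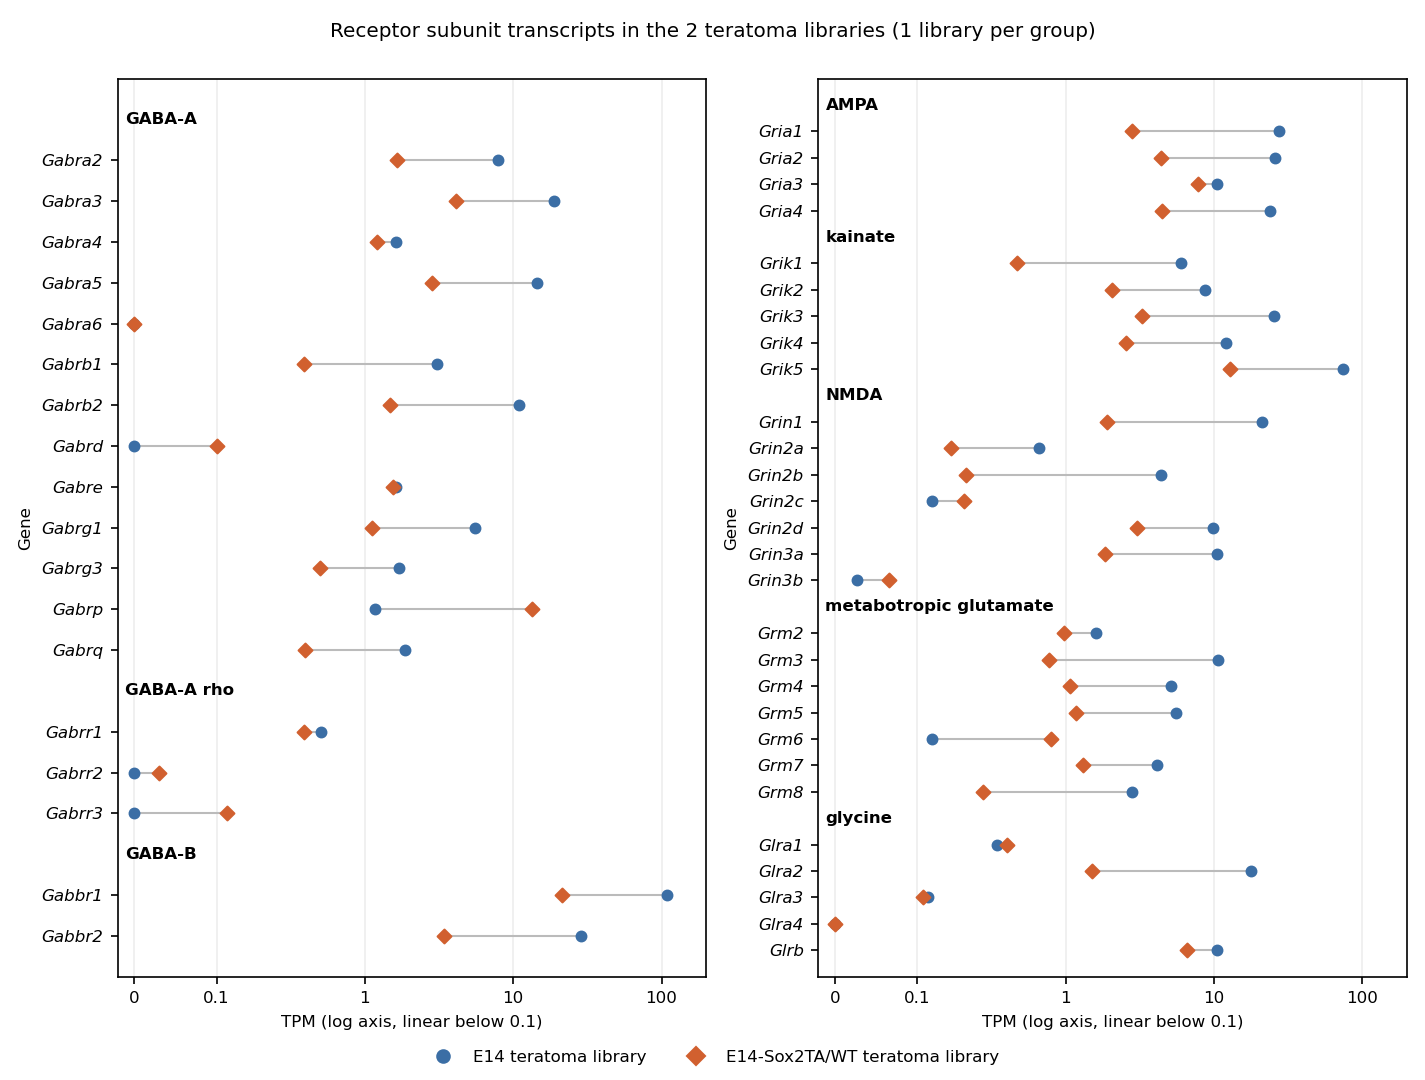
Level of 46 of the 50 receptor subunit transcripts in TPM (x axis, logarithmic above 0.1 and linear below) in the E14 library (circles) and the E14-Sox2TA/WT library (diamonds), 1 library each, with grey lines joining the values of a gene. Most diamonds lie left of their circle, and Gabrp, at 1.16 and 13.4, lies the other way.

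With the TPM filter and fold threshold of the study's methods, a gene was called when its TPM reached 10 in either library and differed by more than 2-fold. Over all genes this called 2167 lower and 1253 higher in E14-Sox2TA/WT. These numbers differ from those the study reported for its teratomas, so the calls are not the study's own. Of the 50 members, 20 reached this TPM, and 17 were called lower in E14-Sox2TA/WT, against a background of 18.7% of the 11578 genes that reached it. The rule called 1 member, Gabrp, higher, against a background of 10.8%. Only 2 members (Gabbr1 and Grik5) reached the TPM in both libraries, 17 reached it through E14 alone and 1 through E14-Sox2TA/WT alone, so the filter itself favors a direction for these. Where the TPM had only to reach 1 in either library, 32 members were lower against 18.9% of 18558 genes, and 1 was higher against 19.3%. All 38 members that reached 1 did so in E14, and 28 of them also in E14-Sox2TA/WT, so this filter favors a direction too. The remaining 12 of the 50 stayed under a TPM of 1 in both libraries.

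A mean TPM of at least 1 over both libraries kept the same 38 members, so E14 levels weigh on this filter as well. Their median log2 ratio was -1.81, with 1 added to each TPM. The same median over the 17515 genes that passed this filter was -0.083. The members ranged from -2.94 (Grin1) to 2.74 (Gabrp), and 37 of 38 were lower, against 53.8% of all these genes. The 12 neuron markers had a median of -2.21 and ranged from -3.33 to -0.32. Within that range lay 35 of the 38 members, and 3 (Gabra4, Gabre and Gabrp) lay above it. The range is wide and the share of all genes within it was not counted, so these numbers are a description only. The part of the neuron markers in the difference of any member was not tested. Long transcripts as a class were also lower. By length, genes were put in 10 bins of equal size, in which the median log2 ratio went from 0.37 in the shortest to -0.55 in the longest. The 3 bins of longest transcripts held 29 of the 38 members, and the part of length in their differences was not tested.

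**Figure D2:**
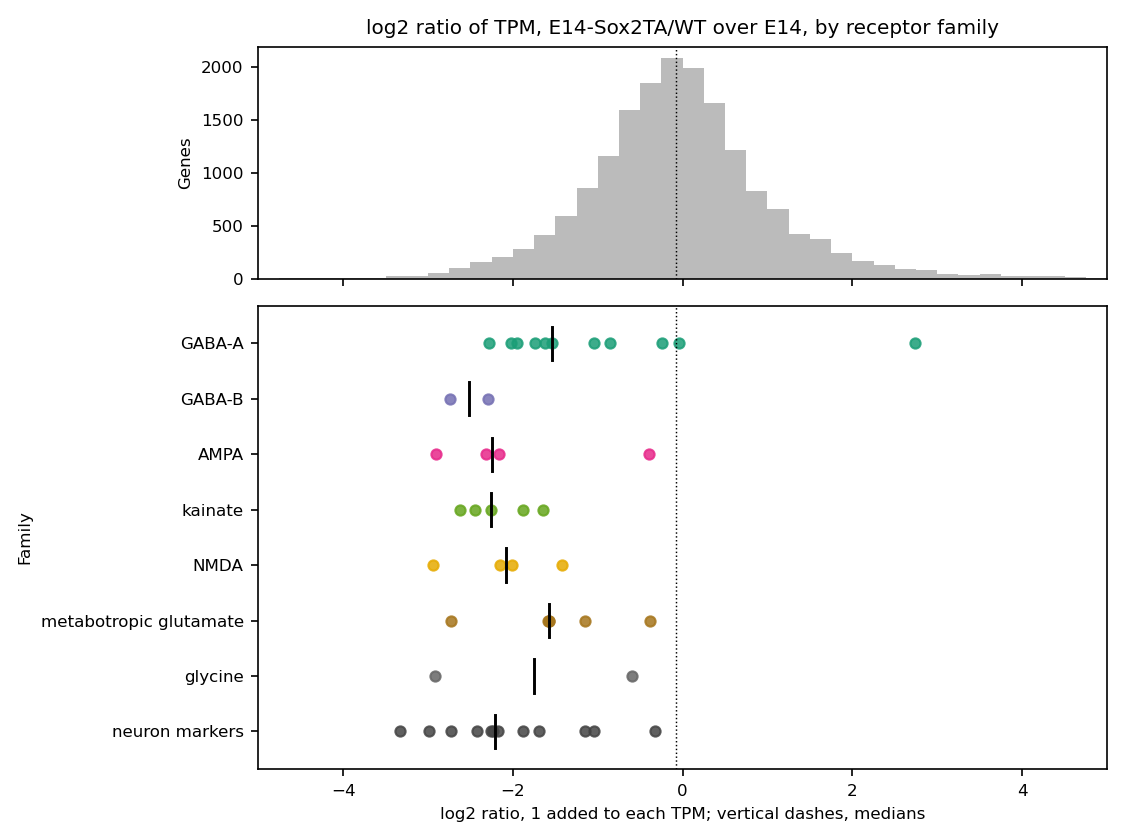
The upper panel is a histogram of the log2 ratio of TPM (E14-Sox2TA/WT over E14, 1 added to each) over the genes with a mean TPM of at least 1. In the lower panel each point is a neuron marker or 1 of 34 of the 38 receptor subunits, short vertical lines are medians of the points drawn in a row, and the dotted line is the median of all genes at -0.083. Nearly all points lie left of that line, with Gabrp at 2.74.

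The inhibitory ionotropic receptors are described first. GABA-A receptors are usually built from alpha, beta and gamma subunits, with delta, epsilon, pi or theta in place of gamma in some. The 16 GABA-A transcripts summed to a TPM of 126 in E14 and 38.4 in E14-Sox2TA/WT, which is 3.29-fold lower. Without Gabrp, the other 15 summed to 125 and 24.9, which is 5.02-fold lower.

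Among the alpha subunits, which help to form the GABA site and set benzodiazepine response, Gabra3 (chrX:72432676-72656919) was the highest in both libraries, with a TPM of 18.7 in E14 and 4.10 in E14-Sox2TA/WT. Its reads were 3.98-fold lower (interval 3.57 to 4.44). Gabra5, known for receptors outside the synapse in hippocampus, was at 14.6 and 2.82, and Gabra2 was at 7.89 and 1.66. All 3 are prominent before birth in brain. Gabra4 differed less than these, at 1.61 and 1.21 from 161 and 135 reads, and its interval held 1 (read ratio 0.864, 0.682 to 1.09). Gabra6, a subunit of cerebellar granule cells, had 0 reads in each library, where 3 reads is the limit a count of 0 allows.

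The beta subunits are needed for assembly and surface delivery. Gabrb2 went from 11.03 to 1.47 and Gabrb1 from 3.04 to 0.391. Reads were 6.40-fold lower for Gabrb2 (5.67 to 7.24) and 6.68-fold lower for Gabrb1 (5.63 to 7.97). These intervals overlap, so the pair did not differ beyond counting error.

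Gamma subunits help to form the benzodiazepine site. Gabrg1 was at 5.55 and 1.12, with reads 4.15-fold lower (3.46 to 5.02), and Gabrg3 at 1.69 and 0.495, with reads 2.95-fold lower (2.41 to 3.62). Gabrq, the theta subunit, was at 1.88 and 0.397 from 254 and 67 reads. Gabre, the epsilon subunit, was at 1.63 and 1.56 from 130 and 138 reads. Its interval held 1 and the sign of its log2 ratio depended on the scaling, so no direction is given for it. Gabrd, the delta subunit of receptors outside the synapse, had 0 reads in E14 and 6 in E14-Sox2TA/WT, and the lower limit of its read ratio was 1.21.

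Gabrp (chr11:33550781-33578978), which encodes the pi subunit and is known from epithelia such as uterus and mammary gland, stood apart from its family. It had 92 reads and a TPM of 1.16 in E14, and 1183 reads and a TPM of 13.4 in E14-Sox2TA/WT. Reads were 13.3-fold higher in E14-Sox2TA/WT (10.7 to 16.6). It took 0.919% of the summed GABA-A TPM in E14 and 35.0% in E14-Sox2TA/WT, and by reads 0.599% (0.483 to 0.734) and 26.7% (25.4 to 28.0). In the latter library it was the highest GABA-A transcript. All 5 epithelial markers (Krt8, Krt18, Cldn6, Cdh1 and Epcam) were also higher in E14-Sox2TA/WT, with a summed TPM 2.82-fold higher and a median log2 ratio of 1.21. In TPM they ranged from 1.12-fold higher for Epcam to 3.99-fold higher for Krt18. All 4 pluripotency markers were higher too, with a summed TPM 15.8-fold higher and a median log2 ratio of 3.78. The part of either list in the Gabrp value was not tested.

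Most GABA-A genes sit in clusters, and summed levels were lower in E14-Sox2TA/WT in the clusters on chromosomes 5 and X. The chromosome 5 cluster (Gabrg1, Gabra2, Gabra4 and Gabrb1, chr5:70751047-72149572) was 4.13-fold lower in summed TPM. The X cluster (Gabre, Gabra3 and Gabrq, chrX:72256926-72842607) was 3.68-fold lower. Gabra4 and Gabrb1 are on opposite strands and overlap by their first bases. Whether counting used strand is not given in the sources used here, so reads in this overlap cannot be assigned to 1 gene with certainty.

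The rho subunits form GABA receptors known chiefly from the retina. Gabrr1 had 28 reads in E14 and 24 in E14-Sox2TA/WT, a similar number. Gabrr2 had 0 and 3 reads, and Gabrr3 had 0 and 5. These counts are too few to give a direction for any of the 3, since each interval held 1.

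GABA-B receptors need both of their subunits, Gabbr1 to bind GABA and Gabbr2 to reach the surface and couple to the G protein. Gabbr1 (chr17:37045966-37074305) was the highest of all 50 members in both libraries, with a TPM of 109 in E14 and 21.4 in E14-Sox2TA/WT. Its reads went from 12153 to 2576, 4.58-fold lower (4.39 to 4.78). Gabbr2 was at 28.7 and 3.43, with reads 7.26-fold lower (6.62 to 7.98). The intervals do not overlap, so the difference was larger for Gabbr2 than for its partner beyond counting error. Gabbr1 also occurs in glia and other cells.

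Glycine receptors pair alpha subunits, which bind glycine, with the beta subunit, which binds the scaffold gephyrin. Glra2, the alpha subunit of immature neurons, was at 17.8 in E14 and 1.499 in E14-Sox2TA/WT, with reads 10.2-fold lower (8.503 to 12.3). Glrb was at 10.4 and 6.56, with reads only 1.35-fold lower (1.21 to 1.51). Glra2 took 62.1% of the summed glycine receptor TPM in E14 and 17.5% in E14-Sox2TA/WT. By reads its share was 62.4% (60.3 to 64.5) and 17.6% (14.9 to 20.6), while that of Glrb was 35.8% (33.8 to 37.8) and 76.0% (72.7 to 79.0). The TPM of Glra2 over that of Glrb was 1.71 in E14 and 0.228 in E14-Sox2TA/WT. Glra1, the adult spinal subunit, had 20 and 27 reads, Glra3 had 19 and 20, and both intervals held 1.

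**Figure D3:**
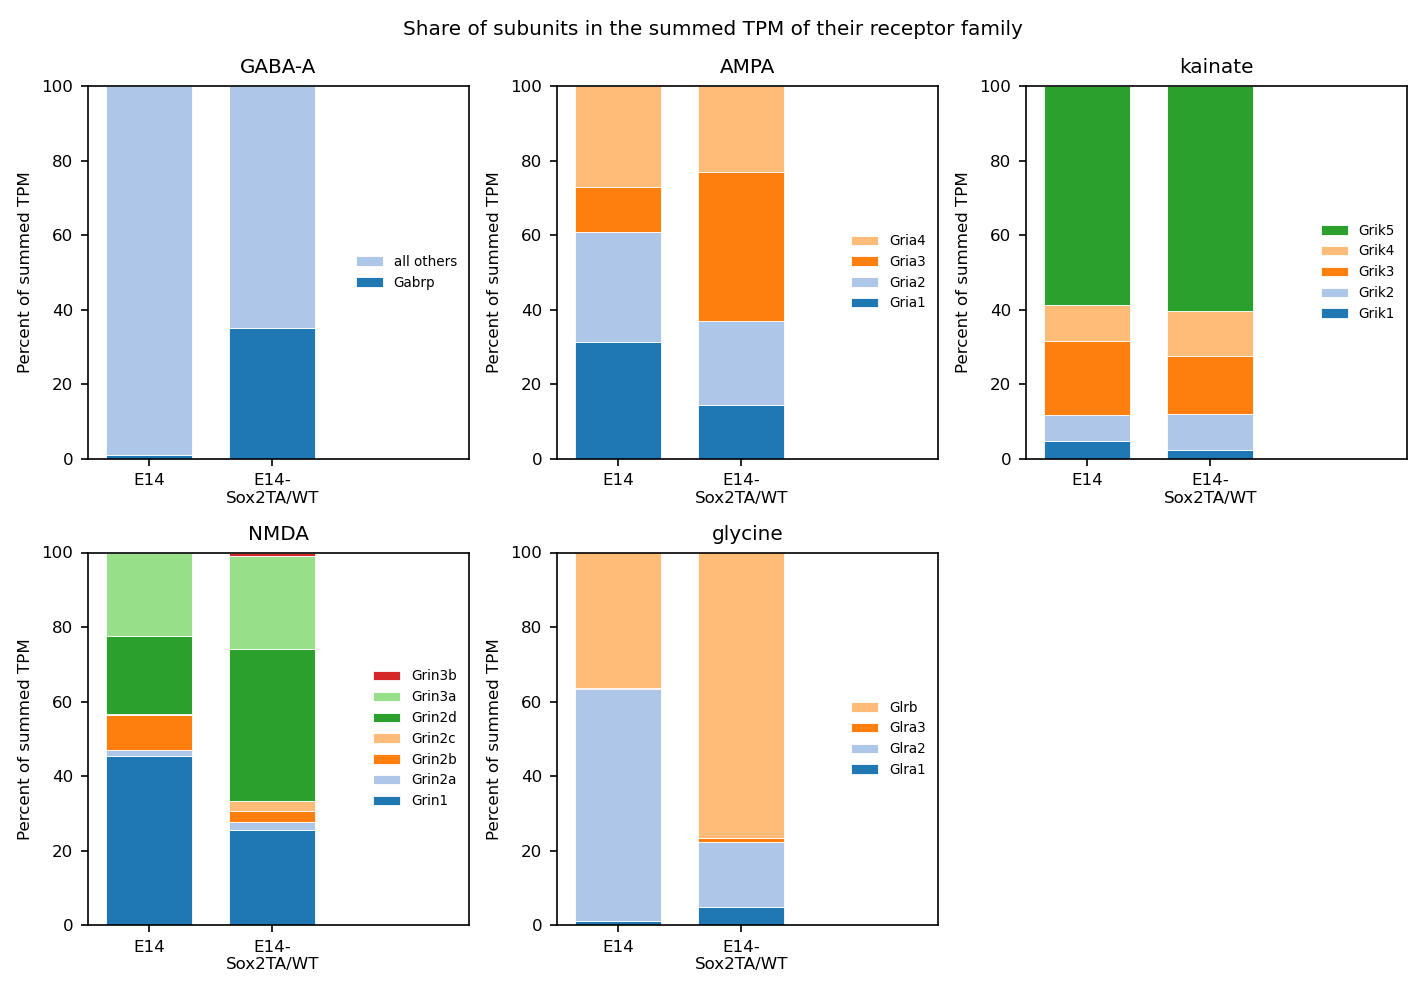
Stacked bars give subunits as percent of the summed TPM of their receptor family (y axis, 0 to 100, all GABA-A subunits besides Gabrp as 1 segment) in the E14 library (left bar) and the E14-Sox2TA/WT library (right bar), 1 library each. Gabrp goes from 0.919% to 35.0% of the GABA-A bar, Gria3 from 12.1% to 40.0% of the AMPA bar and Glrb from 36.3% to 76.5% of the glycine bar, while Grik5 is at 58.8% and 60.4% of the kainate bars.

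AMPA receptors carry fast excitatory transmission. Their 4 subunits summed to a TPM of 87.3 in E14 and 19.4 in E14-Sox2TA/WT, which is 4.51-fold lower. Gria1 was at 27.4 and 2.78, with reads 8.35-fold lower (7.56 to 9.24). Gria2, the subunit whose edited form blocks calcium entry, was at 25.7 and 4.37, with reads 4.96-fold lower (4.66 to 5.28). Gria4 was at 23.7 and 4.49, with reads 4.69-fold lower (4.28 to 5.14).

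Gria3 (chrX:41400819-41678601) differed far less than the other AMPA subunits. It was at 10.6 in E14 and 7.75 in E14-Sox2TA/WT, from 1320 and 1077 reads, 1.19-fold lower (1.10 to 1.29). In TPM it was the lowest AMPA transcript in E14 and the highest in E14-Sox2TA/WT. Its share of AMPA reads was 9.45% (8.97 to 9.95) in E14 and 32.8% (31.2 to 34.5) in E14-Sox2TA/WT. The share of Gria1 was 27.1% (26.4 to 27.9) and 13.4% (12.3 to 14.6). The TPM of Gria2 over that of Gria1 was 0.937 and 1.57.

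Kainate receptor subunits were lower as a family, 126 and 21.1 in summed TPM, or 5.97-fold. Grik5, a subunit that needs a partner from Grik1 to Grik3 to form a channel, was the second highest of all members in E14, at 74.0, and was at 12.7 in E14-Sox2TA/WT. Its TPM was 5.82-fold lower but its reads only 3.61-fold lower (3.44 to 3.78), and the transcript length implied by reads and TPM was 1.402-fold longer in E14-Sox2TA/WT. Grik3 was at 25.2 and 3.26, with reads 6.61-fold lower (6.14 to 7.12). Grik4, the other subunit that needs a partner, was at 12.1 and 2.56. Grik2 was at 8.63 and 2.07, with reads 3.90-fold lower (3.54 to 4.30). Grik1 had the largest fold of the family, at 6.03 and 0.470, with reads 9.43-fold lower (7.22 to 12.5), while with 1 added to each TPM the log2 ratios of Grik3 (-2.62) and Grik5 (-2.45) were larger in size than its -2.26.

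NMDA receptors combine the obligatory Grin1 with Grin2 or Grin3 subunits. The family summed to a TPM of 46.7 in E14 and 7.42 in E14-Sox2TA/WT, 6.29-fold lower, the largest fold of any family here. Grin1 was at 21.2 and 1.89, with reads 9.36-fold lower (8.13 to 10.8). Grin2b (chr6:135713221-136173615), the fetal glutamate-binding subunit, had the largest fold of the 38 members with a TPM of at least 1 in a library. With 1 added to each TPM, its log2 ratio of -2.15 is smaller in size than the -2.94 of Grin1, because its level is low. It was at 4.38 and 0.212, from 2535 and 138 reads, 17.8-fold lower (15.01 to 21.3).

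Grin2d, a subunit known from diencephalon and interneurons, was at 9.79 and 3.03, with TPM 3.23-fold lower and reads 4.23-fold lower (3.75 to 4.78). The implied length went the other way, at 0.663 of that in E14. Grin2b over Grin2d in TPM was 0.448 in E14 and 0.0701 in E14-Sox2TA/WT. Grin2b took 30.7% of NMDA reads in E14 (29.7 to 31.7) and 11.5% in E14-Sox2TA/WT (9.77 to 13.5). Grin3a, a glycine-binding subunit that lowers calcium entry, was at 10.5 and 1.85. Grin2a, the postnatal subunit, was at 0.661 and 0.168 from 248 and 71 reads, 3.39-fold lower in reads (2.59 to 4.48). Grin2c had 30 and 55 reads, 1.89-fold higher in E14-Sox2TA/WT (1.19 to 3.05), and Grin3b had 3 and 7, with an interval that held 1.

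Among the metabotropic glutamate receptors, group I (with Grm5) couples to phospholipase C, and groups II (Grm2 and Grm3) and III (Grm4, Grm6, Grm7 and Grm8) inhibit adenylyl cyclase. The summed TPM of all 8 was 4.69-fold lower in E14-Sox2TA/WT. Grm3, which astrocytes as well as neurons express, was the highest in E14 at 10.7 and was at 0.767 in E14-Sox2TA/WT, with reads 12.1-fold lower (9.52 to 15.6). Its group partner Grm2 was at 1.59 and 0.980, with reads only 1.41-fold lower (1.07 to 1.87). Group II thus held both the largest and the smallest lower value of this family.

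In group I, Grm5 was at 5.56 and 1.18, with reads 3.98-fold lower (3.49 to 4.56). In group III, Grm4 was at 5.16 and 1.07, Grm7 at 4.16 and 1.32, and Grm8 at 2.82 and 0.279. Reads of Grm8 were 7.86-fold lower (5.40 to 11.8) and those of Grm7 2.38-fold lower (1.99 to 2.86). Grm7 was the one in its group with a lower level whose interval reached below 2-fold. Grm6, the receptor of ON bipolar cells in the retina, was the member of this family at a higher level in E14-Sox2TA/WT. It had 15 reads in E14 and 104 in E14-Sox2TA/WT, 7.15-fold higher (4.14 to 13.2), at a TPM of 0.126 and 0.794. Of 6 photoreceptor and bipolar cell markers, Rcvrn had 0 reads in both libraries and Crx had 0 in E14, and the summed TPM of the list was 56.5 and 39.3. Their part in the Grm6 value was not tested.

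**Figure D4:**
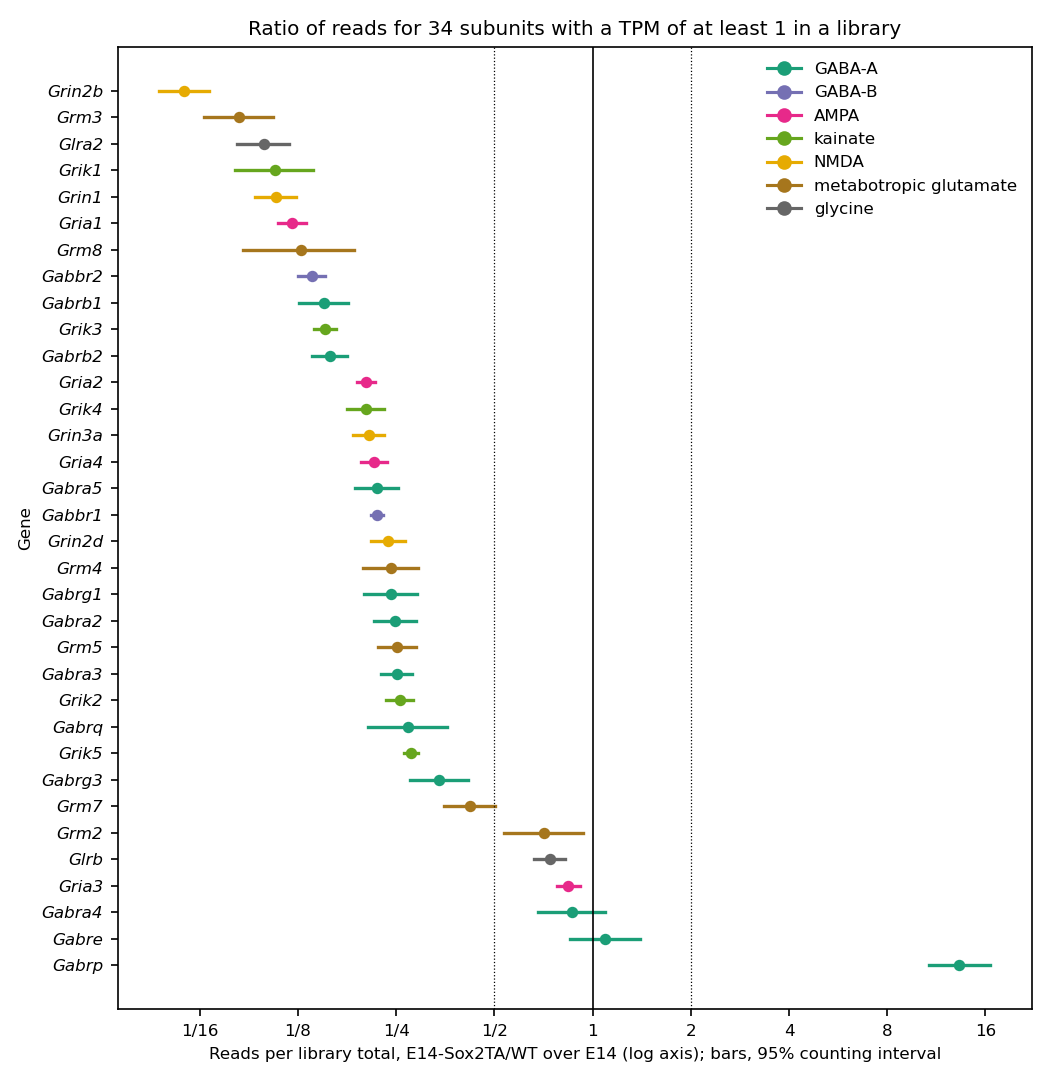
Ratio of reads scaled by library total, E14-Sox2TA/WT over E14 (x axis, log scale), for 34 of the 38 subunits with a TPM of at least 1 in a library, ordered by the ratio and colored by family. Points are ratios, bars are 95% Clopper-Pearson intervals for counting error only, the solid line is no difference and dotted lines are 2-fold. Grin2b is at the low end, Gria3, Glrb and Grm2 lie between the left dotted line and the solid line, and Gabrp alone lies past the right dotted line.

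The 12 members under a TPM of 1 in both libraries (Gabra6, Gabrd, Gabrr1, Gabrr2, Gabrr3, Grin2a, Grin2c, Grin3b, Grm6, Glra1, Glra3 and Glra4) reached at most 0.794, and the most reads any had was 248. The order of levels in the libraries was related but not the same, with a Spearman rho of 0.656 over the 38 other members. This rho is across genes of 1 library each, which share the depth and transcript lengths of that library, and is a description.

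The genes that supply and clear the transmitters are given next, from lists assembled by hand. The called counts use the TPM of 10, at which 18.7% of all genes were lower and 10.8% higher. Of 9 genes for GABA synthesis, breakdown and transport, 6 reached that TPM, of which 6 were called lower and 0 higher, and 3 of the 9 had a higher TPM in E14-Sox2TA/WT. The median log2 ratio was -2.81. Slc6a11, a GABA uptake transporter of glia, was at a TPM of 135 and 10.7, which is 12.6-fold lower. Slc32a1, which loads GABA and glycine into vesicles, was at 24.95 and 1.37, 18.2-fold lower. Of 11 genes for glutamate synthesis and transport, 6 reached that TPM, of which 4 were called lower and 0 higher, and 4 of the 11 had a higher TPM. Their median was -1.21. Slc1a3, a glial glutamate transporter, was at 262 and 76.5 and Slc1a2, another, at 23.4 and 4.32. Glul, which makes glutamine in glia, differed little, at 217 and 190. Gls2, a glutaminase also used by liver, was at 0.882 and 6.14, 6.96-fold higher in E14-Sox2TA/WT.

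Of 7 genes for glycine transport and breakdown, 6 reached that TPM, of which 1 was called lower and 1 higher, a share near that of all genes. Their median was -0.33. The called genes were Slc6a9, a glycine transporter of glia, at 30.2 and 6.46, and Shmt1, a serine and glycine converting enzyme of one-carbon metabolism in many cells, at 23.5 and 65.7. Gcsh and Shmt2, of the mitochondrial glycine pathways, were at 226 and 155 and at 84.8 and 58.5.

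Of 14 auxiliary and scaffold proteins of inhibitory receptors, 10 reached a TPM of 10, of which 5 were called lower (18.7% of all genes) and 0 higher (10.8%). Their median was -1.13. Lhfpl4, which brings GABA-A receptors to synapses, was at 52.8 and 7.13, Nlgn2, an adhesion protein of inhibitory synapses, at 89.4 and 20.2, and Iqsec3, a regulator at inhibitory synapses, at 8.79 and 0.799. Gabarap, which serves autophagy in many cells, was at 396 and 291. Of 29 auxiliary and scaffold proteins of glutamate receptors, 15 reached that TPM, of which 9 were called lower and 0 higher. Their median was -1.30. Shank1, a postsynaptic scaffold, was at 30.0 and 1.99, 15.04-fold lower. Dlg4, which encodes PSD-95, was at 92.9 and 25.03, Cnih2, an AMPA receptor auxiliary protein, at 106 and 27.6, and Dlg2, which encodes PSD-93, at 11.2 and 0.974.

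The chloride gradient decides whether GABA-A and glycine receptors excite or inhibit a cell. Slc12a5, the neuronal exporter KCC2, was at 21.7 in E14 and 3.59 in E14-Sox2TA/WT, 6.05-fold lower. Slc12a2, the importer NKCC1, which epithelia also use, was at 23.4 and 38.1, 1.63-fold higher. The TPM of Slc12a5 over that of Slc12a2 was 0.931 and 0.0943. Of 5 delta glutamate receptors and ligands, 2 reached a TPM of 10 and both were called lower (18.7% of all genes), with a median of -1.62 over the 5. These receptors organize synapses. Grid1 was at 10.8 and 0.720, and the ligand Cbln1 at 44.6 and 13.9.

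**Figure D5:**
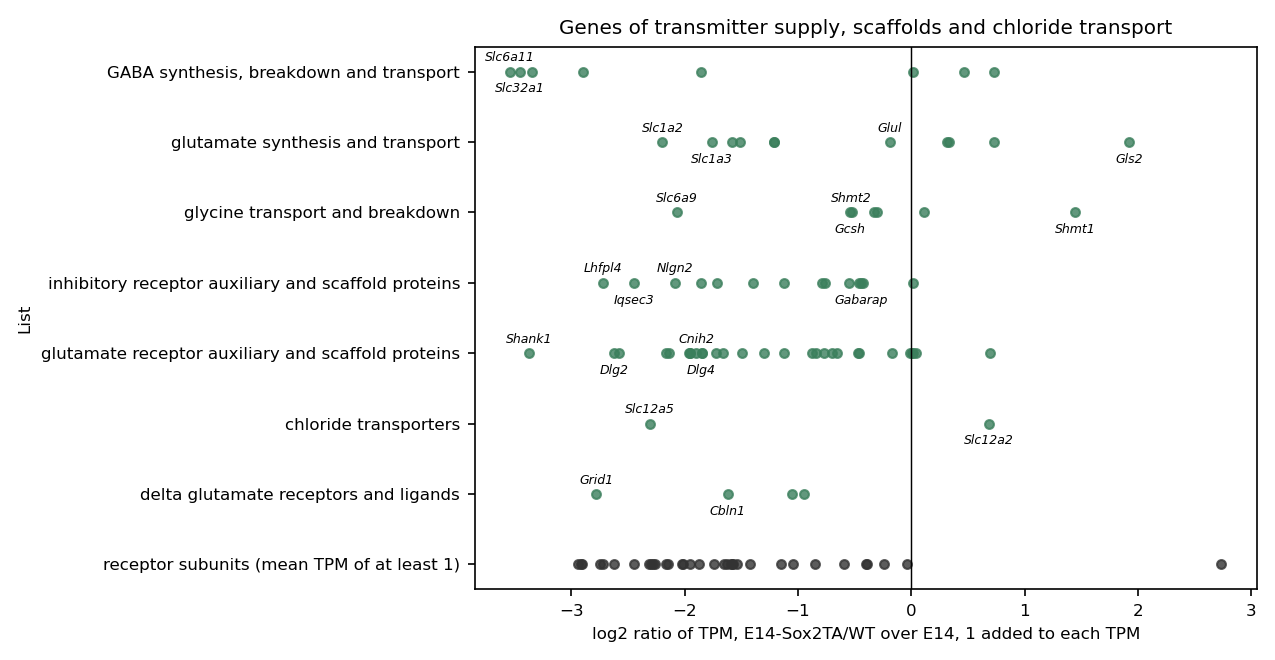
Each point is a gene of a transmitter, scaffold, chloride transport or delta receptor list, or 1 of 34 receptor subunits (bottom row), placed at its log2 ratio of TPM, E14-Sox2TA/WT over E14, with 1 added to each TPM (x axis). The vertical line is no difference and the named genes are labelled. Not every listed gene is drawn. GABA supply genes reach furthest left, with a median of -2.81 over the whole list, and the glycine list centers near the line, with a median of -0.33.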

How the data were processed

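One polyA RNA-seq library per genotype was analysed. The authors deposited whole-number read counts per gene, FPKM values (counts scaled by transcript length and library) and TPM values in 1 table. The submitters' processing notes name bcl2fastq 2.20.0, Trimmomatic, HISAT2 2.1.0, StringTie 2.1.3b and the builds mm10 and hg19, without role or order. Genes were identified by NCBI number, and 45679 of 45777, including all 50 members, matched a RefSeq table of GRCm38.p6 (the build of mm10), which gave positions, and promoter windows for 36 members.

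Ratios of TPM and of counts scaled by library total were computed, with 95% Clopper-Pearson intervals for the counts. Log2 ratios had 1 added to each TPM. For a count of 0, 3 reads was taken as the limit it allows, while the ratios and intervals given here used the deposited values. Reads are not independent molecules, so intervals cover counting error only. No p-value was computed, since there was 1 library per group. Depths of 50529171 and 49030281 reads limit precision for members under a TPM of 1. Printed windows leave out bases inside the gene's own RefSeq span. GENCODE M21 exons were used only to count the bases of windows that lie in exons.

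Members and lists were chosen with earlier results of these data known. Every member with a TPM of at least 1 in a library is named with its values, and the others by counts, except that some genes are not reported here. Each pathway list is represented by its top 2 genes by TPM and its top 2 by absolute log2 ratio, with Sox2 and Tubb3 besides. Epithelial and retinal markers were named outside this rule.

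Alternatives were FPKM, library total, TMM (edgeR 4.0.16 in R 4.3.3), median-of-ratios, centring, length correction, fold thresholds, pseudocounts, TPM filters and leaving out chromosomes 8 and 15. Of the members, only Glra3, under a TPM of 1, lies on chromosome 8, and 0 lie on chromosome 15. Leaving these chromosomes out therefore could not change the filtered count or median of the members. Scripts were tested on simulated data. Python 3.11.15, numpy 2.4.6, pandas 2.3.3 and scipy 1.17.1 were used.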

Additional observations from a re-analysis of the deposited data

How the results depend on the processing

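The count of members lower by more than 2-fold was 17 with a TPM of at least 10 in a library, and stayed between 17 and 19 under other scalings, centring, length correction, fold thresholds of 1.5 and 3 and a mean TPM of at least 5. It was 32 with a TPM of at least 1 in a library, 32 with a mean TPM of at least 1 and 33 with no filter, since more members then enter. The count of members higher was 1 throughout, and 6 with no filter. The median log2 ratio of -1.81 was -1.67 with FPKM, -1.58 after correction for transcript length, -2.27 and -2.05 with pseudocounts of 0.1 and 0.5, -1.56 over all members without a filter and -2.29 with a mean TPM of at least 5. Under the remaining settings it lay between -1.86 and -1.75. The median over all genes was -0.083 in TPM, 0.098 in FPKM and 0.099 in counts scaled by library total, so a difference is best read against it. Of 304 alternative values of single genes, 137 moved by more than counting error and 0 of those called changed direction, and 6 values, all of Gabre, took another sign. No paired analysis was possible because each genotype has a single library, and no replicate could be left out. Depth limits the members under a TPM of 1, and the difference between tumors of a genotype was not measured.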
